A study of Mus musculus with 2 samples.

Results

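The 10 genes described here set the pace of the G1 phase of the cell cycle: the CDK inhibitors Cdkn1a, Cdkn1b, Cdkn1c, Cdkn2c and Cdkn2d, the D cyclins Ccnd1, Ccnd2 and Ccnd3, and the kinases Cdk4 and Cdk6. They were chosen by name, and all 10 were among the 39017 genes of the deposited count table, matched by Ensembl identifier to GENCODE M21 symbols. The table held 1 library of Lin- Sca-1+ c-Kit+ (LSK) cells from bone marrow of each genotype, where haematopoietic stem cells and their multipotent progeny are found. The wild-type (WT) library pooled cells of 12 mice and the miR-146a-/- library cells of 6. Both pools were on the C57BL/6J background, from animals aged 10 to 14 weeks, and the labels name no treatment. The labels do not say how the miR-146a allele was made or what the sex of the animals was. The comparison asks which G1 genes differed between LSK cells with and without miR-146a, a microRNA known for damping inflammatory signalling.

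D cyclins bind CDK4 or CDK6, and the pair phosphorylates the retinoblastoma protein, which releases E2F factors to switch on genes for DNA replication. INK4 inhibitors (here Cdkn2c and Cdkn2d) bind the kinases and keep D cyclins away, whereas CIP/KIP inhibitors (Cdkn1a, Cdkn1b and Cdkn1c) bind cyclin-kinase complexes and block CDK2 above all. In haematopoietic stem cells, CIP/KIP inhibitors are known for their part in quiescence, and Cdk6 for the exit from it.

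With 1 library per genotype there was no replicate check, so no test was possible and every difference below is between these 2 libraries. Counts were scaled by TMM, a method that sets library sizes so that most genes keep the same level. A level is a count divided by that library size on the usual CPM scale (normalised CPM). A ratio is the miR-146a-/- level over the WT level, on the log2 scale, given only where the libraries together held 20 or more counts of a gene, which 13880 genes did (measured genes). Its 95% interval is the exact Clopper-Pearson interval of the counts and covers counting error only. A gene was called higher or lower where the whole interval lay beyond 1.5-fold.

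The WT library held 35069136 counts and the miR-146a-/- library 22231389, of which protein-coding genes took 81.4% and 51.5%. TMM centred the measured genes at a median ratio of -0.01. Scaling by total counts instead shifted that median by -0.82 and every member with it, and scaling by the protein-coding total gave ratios lower by about 0.16. Directions below are therefore relative to the bulk of measured genes. The pools also differed in sex-linked RNA: the Xist level was 236 (WT) and 2938 (miR-146a-/-) normalised CPM, and Kdm5d on the Y chromosome at 27.1 and 4.01. Immediate early genes stood much higher in miR-146a-/-, with 23 of 25 called higher and none lower, and a summed level of 5976 against 22764 normalised CPM. In this list, Egr2 (ratio 3.37) and Egr3 (2.86) were highest, and Myc (0.12) and Srf (0.33) lowest. The part of sex and of this early response in the differences below was not tested. Mir146 itself had 0 counts in both libraries, as had Mir146b, so the table holds no check of the genotype.

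The LSK label was read against 10 stem and progenitor markers, all of which were measured. In WT and miR-146a-/- respectively, Kit had 558 and 728 normalised CPM and Cd34 had 551 and 481. Of the lineage genes, Cd3e and Cd8a had 0 counts in both libraries, which allows up to 0.0644 (WT) and 0.179 (miR-146a-/-) normalised CPM (3 counts each). Itgam (1673 and 950 counts, 35.9 and 56.8 normalised CPM) and Cd4 (86 and 68 counts, 1.85 and 4.07) were the most abundant of them. Of the 10 lineage genes, 4 were measured, with 1 called higher (Cd4), none lower, and a median ratio of 0.79. The summed level of 10 neutrophil markers was 15.9 in the WT library and 7.96 normalised CPM in the other, led by Ngp (211 and 29 counts) and S100a9 (152 and 23). Of the 8 measured, 3 were called lower and 0 higher. Markers of monocytes and macrophages summed to 89.0 and 92.3 normalised CPM, with 1 of 8 measured called higher and none lower. Those of B and plasma cells summed to 427 and 335, with 2 of 6 called lower and none higher, and those of erythroid cells to 3.46 and 4.67, where Alas2 and Slc4a1 had 0 counts. Markers of T and NK cells summed to 61.2 and 57.1 with Cd3e, Cd3d, Cd3g and Cd8a at 0. Of the 6 measured, 3 were called higher and none lower, with a median ratio of 1.02, while Nkg7 (34.4 and 31.7) and Lck (22.6 and 15.3) carried most of the sum. Markers of mast cells and basophils summed to 3.84 and 6.28 and those of stromal and endothelial cells to 152 and 195 with Col3a1 and Lepr at 0. In bulk RNA, fewer cells of a type and less RNA per cell cannot be told apart, and the part of these cells in the members' ratios was not tested.

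All 10 members were measured. Of them, 2 were called higher in miR-146a-/- (Cdkn1a and Cdkn1b), 0 were called lower, and 8 were neither. Among all measured genes, 742 (5.35%) were called higher and 212 (1.53%) lower. With 10 genes in the list, these shares are a background for reading the count, not a test of it. They are also the background for the list counts above and below. Scaled by total counts, the split was 0 members higher and 5 lower (Cdkn2c, the 3 D cyclins and Cdk4), beside 140 genes higher and 7077 lower in the whole table. Scaled by the protein-coding total, it was 1 and 1, beside 496 and 574. The median member ratio was 0.02. The interval excluded 0 for 7 members, 3 upward and 4 downward, and for 57.1% of all measured genes.

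**Figure D1:**
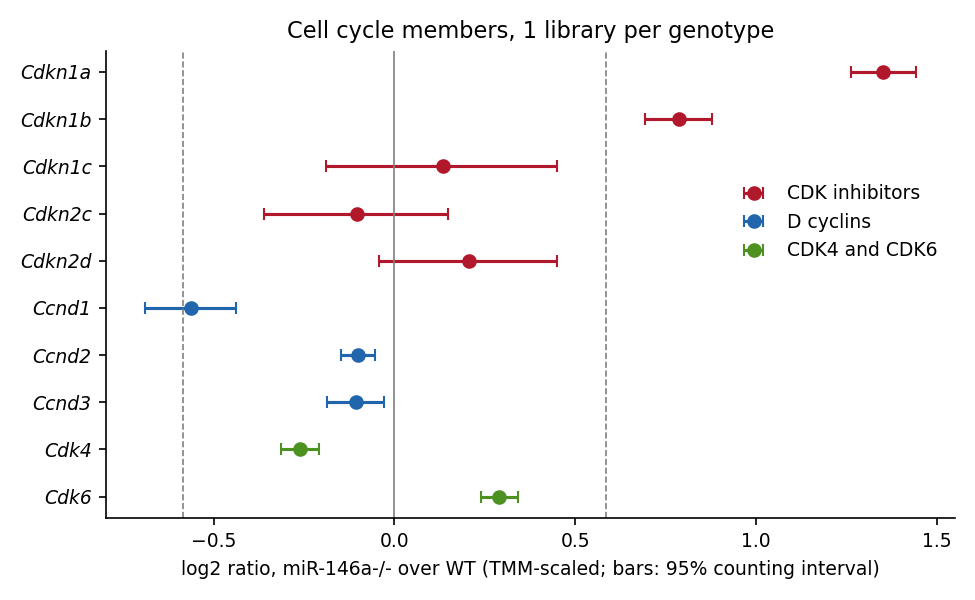
Log2 ratio (miR-146a-/- over WT) for each member (x axis, TMM-scaled), with its 95% counting interval, 1 library per genotype. The dashed lines mark 1.5-fold. Cdkn1a and Cdkn1b lie wholly beyond the upper line, and the interval of Ccnd1 crosses the lower one. Scaling by total counts would move every point left by about 0.82, which leaves only Cdkn1a above 0 and takes Cdkn1b just below it.

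Per length, the order of the levels differed between the libraries mainly through Cdkn1a and Cdkn1b. On the scale of normalised CPM per kilobase of exon, WT ran from Cdk4 (81.1) through Ccnd2 (33.2), Cdk6 (15.4), Ccnd3 (12.6), Cdkn1a (12.5), Ccnd1 (11.9), Cdkn1b (11.8), Cdkn2d (6.42) and Cdkn2c (4.09) to Cdkn1c (3.07). Intervals of neighbouring levels, exact Poisson and for counting error only, overlapped from Ccnd3 through Cdkn1a and Ccnd1 to Cdkn1b, and nowhere else in WT. In miR-146a-/- the order was Cdk4 (67.7), Cdkn1a (31.8), Ccnd2 (30.9), Cdkn1b (20.4), Cdk6 (18.8), Ccnd3 (11.7), Ccnd1 (8.08), Cdkn2d (7.41), Cdkn2c (3.81) and Cdkn1c (3.37). There the neighbours that overlapped were Cdkn1a with Ccnd2, Ccnd1 with Cdkn2d, and Cdkn2c with Cdkn1c. Cdkn1a was thus number 5 in the WT order and number 2 in the other, and Cdkn1b number 7 and number 4. These places hold for exon lengths only. Ccnd3 has 8775 exon bases but a longest transcript of 3858, while both lengths are 4552 for Cdkn1b. Places of genes from different families therefore depend on the length used. Both orders had Cdk4 at the top and Cdkn2d, Cdkn2c and Cdkn1c at the bottom.

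**Figure D2:**
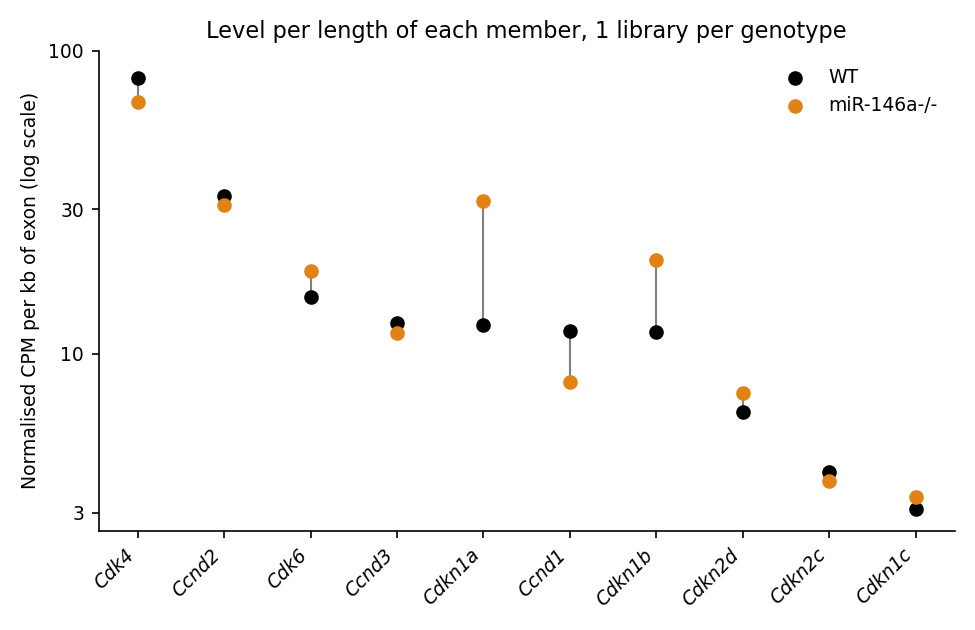
Level of each member in normalised CPM per kilobase of exon (y axis, log scale) in the WT library (black) and the miR-146a-/- library (orange), sorted by the WT level. The wide gaps are those of Cdkn1a (12.5 and 31.8) and Cdkn1b (11.8 and 20.4), with miR-146a-/- above WT, and of Ccnd1 (11.9 and 8.08), with miR-146a-/- below.

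Cdkn1a encodes p21, the inhibitor that p53 switches on after DNA damage and that growth signals can also induce. WT held 2064 counts of it and the smaller miR-146a-/- library 1891, or 44.3 and 113 normalised CPM. The ratio was 1.35 (interval 1.26 to 1.44), a 2.55-fold higher level, and 420 of the 13880 measured genes had a higher ratio. Scaled by total counts the ratio was 0.53 and was no longer called. The gene (ENSMUSG00000023067) lies at chr17:29090976-29100727 on the plus strand of GRCm38, and AC167363.2 on the opposite strand overlaps 7.68% of its exon bases.

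RefSeq gives Cdkn1a 2 promoter windows in GRCm38.p6, each from 250 bases before to 50 after a transcript start. The first, chr17:29090729-29091028 on the plus strand, is shown because it holds a match to the p53 response element, which is a pair of 10-base repeats. Capitals mark the 3 such repeats.
Cdkn1a: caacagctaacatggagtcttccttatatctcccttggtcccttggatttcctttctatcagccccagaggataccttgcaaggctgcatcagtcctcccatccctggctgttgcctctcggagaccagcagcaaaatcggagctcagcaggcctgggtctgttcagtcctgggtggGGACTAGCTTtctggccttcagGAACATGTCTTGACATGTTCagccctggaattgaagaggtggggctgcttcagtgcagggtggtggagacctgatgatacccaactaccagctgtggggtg
The first 2 repeats matched the consensus in full with a spacer of 12 bases, and the last 2 abut as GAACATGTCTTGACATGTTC at chr17:29090928-29090947, with 1 mismatch in the last. A full pair with a spacer of up to 13 bases occurred in 0.0731% of the 32851 RefSeq windows of the table and a pair with at most 1 mismatch in 0.417%. The allowance of 1 mismatch was set after this sequence was seen, and both strands were covered. The second window, chr17:29093519-29093818, held neither, nor did any window of another member. A match describes letters, and says nothing of whether p53 was bound.

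Other p53 targets gave a mixed picture. Of 18 measured, 6 were called higher and 1 lower, beside 5.35% and 1.53% of all measured genes. The median of the 18 was 0.07 (-0.09 by the protein-coding total and -0.75 by total counts). Among those with at least 200 summed counts it was 0.21, or 0.17 with the library sizes unchanged. The highest were Gdf15, a stress-induced cytokine (76 and 248 counts, ratio 3.17), and Btg2, an antiproliferative gene that is also on the immediate early list (2.12). The lowest were Phlda3, an inhibitor of AKT (-1.12, not called), and Aen, an apoptosis nuclease (-0.87, called lower).

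Cdkn1b encodes p27, the inhibitor that holds resting cells out of the cycle. WT held 2512 counts of it and miR-146a-/- 1554, or 53.9 and 93.0 normalised CPM. Its ratio was 0.79 (0.69 to 0.88), 1.72-fold higher in miR-146a-/- and called, but scaled by total counts it was -0.04. Scaled by the protein-coding total it was 0.62 and was not called. The gene (ENSMUSG00000003031) lies at chr6:134920401-134925513 on the plus strand. Its single RefSeq window, chr6:134920151-134920450, is given with the Cdkn1a window because these were the 2 members called higher. Capitals mark the CCAAT box, searched as CCAAT on both strands.
Cdkn1b: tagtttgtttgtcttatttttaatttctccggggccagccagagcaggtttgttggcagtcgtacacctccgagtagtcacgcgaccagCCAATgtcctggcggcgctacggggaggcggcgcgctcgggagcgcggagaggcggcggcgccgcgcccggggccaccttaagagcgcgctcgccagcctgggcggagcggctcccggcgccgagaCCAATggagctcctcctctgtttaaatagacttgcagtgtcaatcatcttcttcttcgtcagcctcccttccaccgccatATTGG
It held 3 CCAAT matches, which occurred at least once in 37.4% of all windows, and 1 GC box (GGGCGG), found in 35.7%. The FOXO motif TGTTTAC, present in 3.65% of windows, was not in these letters. Neither Cdkn1a window held a CCAAT box, so the 2 genes called higher shared no motif of those searched except the GC box, of which the second Cdkn1a window held 2. No Cdkn1a or Cdkn1b window held a match to the NF-kB motif (5.89% of windows) or the CArG box of SRF (1.63%), both searched by their names' consensus.

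Cdkn1c encodes p57, an imprinted inhibitor that long-term stem cells express. WT held 292 counts of it and miR-146a-/- 115, or 6.27 and 6.88 normalised CPM, a ratio of 0.13 (-0.19 to 0.45). The interval allowed a level up to 1.37-fold higher or 0.877 of WT. An antisense gene, Gm44732, overlaps 30.7% of its exon bases, and since use of strand in counting is not given in the sources used here, their reads cannot be separated. Cdkn1c was the least abundant member per length in both libraries.

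The 3 CIP/KIP genes together went from 104 to 213 normalised CPM, a ratio of 1.03 (0.96 to 1.09). Cdkn1a and Cdkn1b also exchanged places within the family. Cdkn1a took 42.4% of CIP/KIP counts in WT (exact binomial interval 41.0 to 43.8%) and 53.1% in miR-146a-/- (51.5 to 54.8%), while Cdkn1b took 51.6% and 43.7%. Per kilobase, Cdkn1a led in both, with 45.5% and 57.2%.

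The INK4 genes showed no such gap. Cdkn2c, which encodes p18, had 512 and 171 counts, 10.99 and 10.23 normalised CPM, and a ratio of -0.10 (-0.36 to 0.15). Cdkn2d, which encodes p19, had 471 and 195 counts, 10.1 and 11.7 normalised CPM, and a ratio of 0.21 (-0.04 to 0.45). Both intervals included 0 and lay within 1.5-fold, but with length and GC content adjusted for (as described with the kinases) Cdkn2d was at 0.36 (0.11 to 0.61), still not called. Summed, the 2 genes were at 21.1 and 21.9 normalised CPM, a ratio of 0.05 (-0.12 to 0.23). Of the other INK4 genes, Cdkn2a, which encodes p16 and p19ARF and is silent in most young tissue, had 0 counts in both libraries, and Cdkn2b had 1 in WT and 0 in miR-146a-/-.

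Among the D cyclins, Ccnd1 stood apart from the other two. WT held 2619 counts of it and miR-146a-/- 636, or 56.2 and 38.1 normalised CPM. The ratio was -0.56 (-0.69 to -0.44), that is a 0.677-fold level, and its interval crossed the 1.5-fold line, so it was not called. Scaled by the protein-coding total it was -0.72 and called lower. LTO1, on the opposite strand, overlaps 1100 bases or 23.4% of Ccnd1 exons. LTO1 had 559 and 170 counts, a ratio of -0.24 (-0.49 to 0.01), and how many reads the genes share was not tested.

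Ccnd2 was the most abundant D cyclin. It had 14534 and 4860 counts, 312 and 291 normalised CPM, and a ratio of -0.10 (-0.15 to -0.05). Ccnd3 had 5171 and 1722 counts, 111 and 103 normalised CPM, and a ratio of -0.11 (-0.19 to -0.03). These 2 cyclins kept a count ratio of 2.81 (WT) and 2.82 (miR-146a-/-), a log2 change of 0.01 (-0.09 to 0.10). Ccnd3 shares 361 exon bases with Bysl on the opposite strand, which had a ratio of -0.81. The share of Ccnd1 in all D cyclin counts was 11.7% in WT (11.3 to 12.2%) and 8.81% in miR-146a-/- (8.17 to 9.49%). D cyclins summed to 479 and 432 normalised CPM, a ratio of -0.15 (-0.19 to -0.11).

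The 2 kinases stood on opposite sides of 0, though neither was called. Cdk4 had 12280 and 3676 counts, 264 and 220 normalised CPM, and a ratio of -0.26 (-0.31 to -0.21). Cdk6 had 10044 and 4407 counts, 216 and 264 normalised CPM, and a ratio of 0.29 (0.24 to 0.34). With total-count scaling both were below 0, at -1.08 and -0.53. Their ratio to each other does not depend on scaling: there were 1.22 (WT) and 0.834 (miR-146a-/-) Cdk4 counts per Cdk6 count, a log2 change of -0.55 (-0.63 to -0.48) whose interval did not lie wholly beyond 1.5-fold. Cdk4 took 84.0% of the level per kilobase of the 2 kinases in WT and 78.2% in miR-146a-/-.

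Transcript length moves with this contrast. Of 10 length classes of protein-coding genes, the shortest had a median ratio of -0.21 and the longest one of 0.20. Cdk6, with a longest transcript of 11525 bases, is in the longest class, and Cdk4, with 2053 bases, in class 3. After subtraction of the class medians of length and GC content, Cdk6 was at 0.09 and Cdk4 at -0.15, while Cdkn1a was at 1.44, Cdkn1b at 0.78 and Ccnd1 at -0.51. The less abundant inhibitors were at 0.24 (Cdkn1c), -0.03 (Cdkn2c) and 0.36 (Cdkn2d). Tspan31 on the opposite strand overlaps 19.7% of Cdk4 exons and had a ratio of -0.07.

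The RefSeq window of Cdk4, chr10:127063285-127063584 on the plus strand, is shown because it is rich in E-boxes, the CACGTG motif that MYC and its relatives read. Capitals mark them.
Cdk4: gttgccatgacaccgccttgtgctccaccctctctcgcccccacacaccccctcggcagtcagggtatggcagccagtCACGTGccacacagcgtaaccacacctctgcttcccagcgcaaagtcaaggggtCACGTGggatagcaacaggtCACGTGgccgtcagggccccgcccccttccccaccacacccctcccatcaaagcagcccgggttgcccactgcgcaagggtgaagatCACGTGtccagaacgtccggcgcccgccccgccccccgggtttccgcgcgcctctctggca
It held 4 E-boxes (searched as CACGTG, a palindrome), and only 8 of 32851 windows (0.0244%) held that many or more, a count set after this window was seen. The Cdk6 window, chr5:3343643-3343942, held 1 E-box, and 7.15% of windows held at least 1. Myc itself was at 440 and 477 normalised CPM, a ratio of 0.12 (0.08 to 0.15). The E2F motifs TTTCGCGC and TTTGGCGC were in no member's window, and 7 of the 10 members had a window, the others being Cdkn1c, Ccnd1 and Ccnd2.

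Against the ratios of all measured genes, the members were spread on both sides of the median. The percentile of Cdkn1a was 97.0, that of Cdkn1b 91.6, of Cdk6 74.3, of Cdk4 26.5 and of Ccnd1 8.81.

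**Figure D3:**
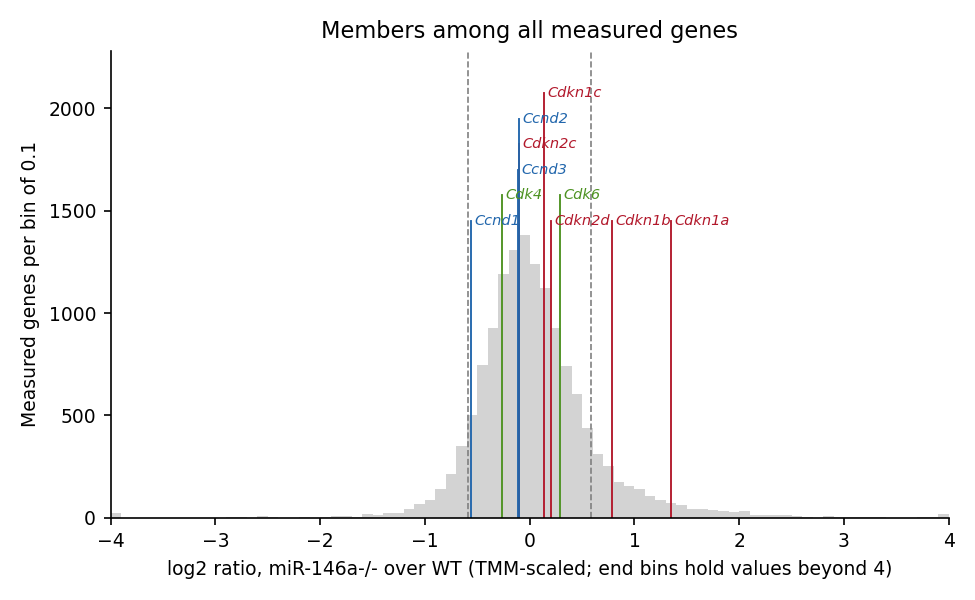
Number of measured genes per bin of 0.1 of the log2 ratio (grey bars, TMM-scaled), with a line at each member's ratio and dashed lines at 1.5-fold. Cdkn1a (1.35) and Cdkn1b (0.79) lie in the right tail, Ccnd1 (-0.56) towards the left, and the other 7 within the bulk. Scaling by total counts would shift bars and lines left together by 0.82.

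Ratios of 2 members within a library do not depend on how the libraries are scaled. Of 45 pairs, 14 differed by more than 1.5-fold between the genotypes over their whole interval (exact conditional interval of the odds ratio). Cdkn1a was in 8 of these, all of its 9 pairs except that with Cdkn1b, and Cdkn1b in 5. The remaining pair was Ccnd1 with Cdk6, at -0.85 (-0.99 to -0.72). Pair changes were not adjusted for length and GC content. That adjustment moved Cdk6 from 0.29 to 0.09 and Ccnd1 from -0.56 to -0.51, which narrows this pair. Which pairs lie beyond 1.5-fold after it was not tested. The widest was Cdkn1a over Ccnd1, with 0.788 (WT) and 2.97 (miR-146a-/-) counts of Cdkn1a per count of Ccnd1, a log2 change of 1.92 (1.76 to 2.07). None of the 21 pairs without Cdkn1a, Cdkn1b and Ccnd1 was beyond 1.5-fold, and the widest of those was Cdk4 with Cdk6. CIP/KIP counts per D cyclin count went from 0.218 to 0.493, a log2 change of 1.18 (1.10 to 1.25). Per kilobase of exon that is 0.474 in WT and 1.10 in miR-146a-/-, values that depend on the length used. INK4 counts per D cyclin count were 0.0440 and 0.0507, a log2 change of 0.20 (0.02 to 0.38).

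**Figure D4:**
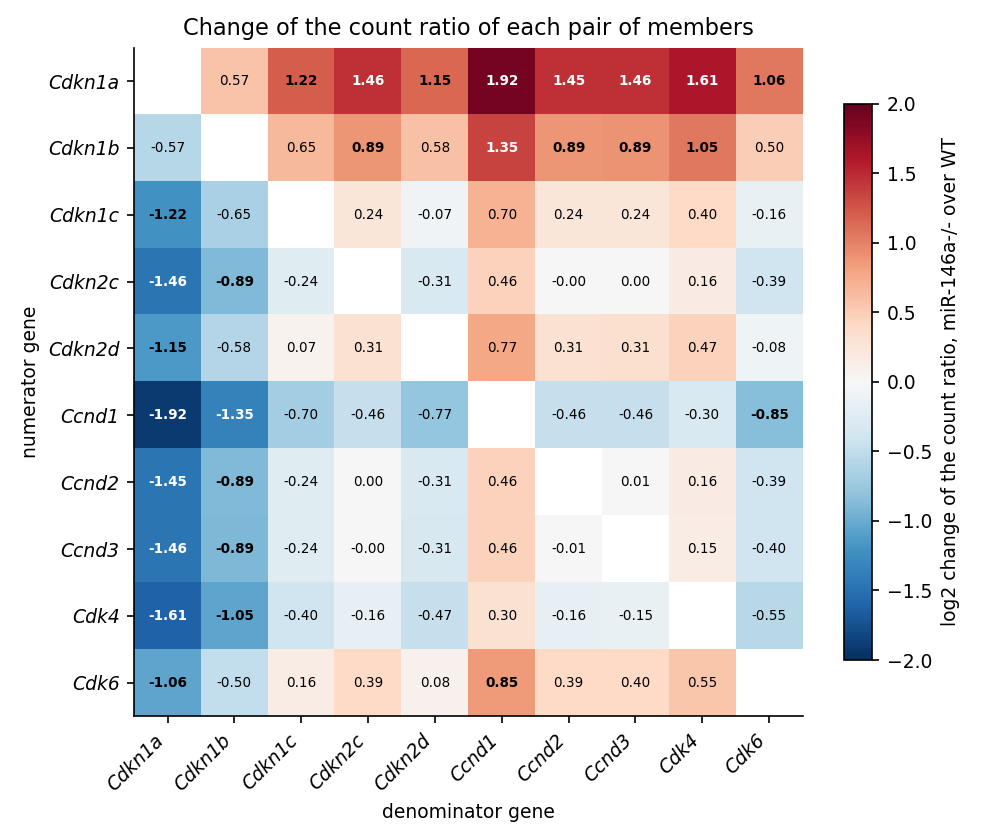
Log2 change of the count ratio of each pair of members, miR-146a-/- over WT, with the numerator gene in rows and the denominator in columns. Bold values lie beyond 1.5-fold over their whole interval. The strong rows are those of Cdkn1a (up to 1.92, over Ccnd1) and Cdkn1b (up to 1.35, over Ccnd1), and the block of the other inhibitors, Ccnd2, Ccnd3 and the kinases is pale.

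The members' 3′ untranslated regions were searched for the miR-146a seed, because a microRNA represses transcripts that pair with it. The mature miR-146a-5p (chr11:43374435-43374456, minus strand) and its relative miR-146b-5p are given as RefSeq has them in GRCm38.p6, with bases 2 to 8 in capitals.
miR-146a-5p: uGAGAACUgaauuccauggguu
miR-146b-5p: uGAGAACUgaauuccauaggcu
They share this seed. Its full match (AGTTCTC) was found in 1 member, Ccnd2, in its longest 3′ untranslated region of GENCODE M21, and in 13.6% of those of 12259 measured protein-coding genes. Cdkn1a held the match to bases 2 to 7 followed by A (GTTCTCA), present in 15.2%. Both sites are shown with their surroundings, with the match in capitals.
Ccnd2, chr6:127128450-127128478, minus strand: gtcgagagacgAGTTCTCtgtactggaaa
Cdkn1a, chr17:29100350-29100378, plus strand: ccccagttgggGTTCTCAgtgacttctcc
Ccnd2, with the full match, had a ratio of -0.10, and Cdkn1a, with the shorter one, 1.35. Ccnd2 also held a match to bases 2 to 7 alone, at chr6:127125481-127125486 (GTTCTC, in 35.7% of genes, longer matches included). Ccnd1 and Cdk6 each held 2 such matches, and their ratios were -0.56 and 0.29. Cdkn1b, Cdkn1c, Cdkn2c, Cdkn2d, Ccnd3 and Cdk4 held none of these letters. A match is not a shown target, and these are the longest annotated ends, which these cells may not use. The shares are not matched for length, and the ends of Cdk6 (10217 bases) and Ccnd2 (5173 bases) were the longest among the members.

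Other genes of the pathway were taken from 7 lists. Of their 90 measured genes, 9 were called higher (10.0%) and 3 lower (3.33%), beside 5.35% and 1.53% of all measured genes. A ratio above 0 was found for 48.8% of all measured genes. The median of the 90 was -0.19. Scaled by total counts, 4 were higher and 64 lower, and by the protein-coding total 6 and 16. All 9 genes called higher were on 2 lists, regulators and p53 targets, and 3 of the 9 were also immediate early genes.

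The cyclin E and cyclin A module, which CIP/KIP inhibitors block, had 7 of 8 genes measured, and none was called. All 7 ratios were below 0, with a median of -0.21 (-0.12 after length and GC adjustment). The lowest were Cks1b, the CDK subunit that helps destroy p27 (986 and 206 counts, ratio -0.78), and Ccne2, a cyclin E (-0.73). The highest were Cks2 (-0.02) and Ccna2, cyclin A2 (-0.12).

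Retinoblastoma family and E2F genes, 13 measured, had none called and a median of -0.07. Tfdp1, the DNA-binding partner of E2F factors, was lowest (-0.62) and E2f1, an activating E2F, next (-0.45). Rbl2, the p130 pocket protein of resting cells (0.17), and Tfdp2 (0.16) were highest.

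E2F target genes for DNA replication had the lowest median of the 7 lists, at -0.52, against -0.01 for all measured genes. Of 18 measured, 2 were called lower, none was called higher, and 17 ratios were below 0. The lowest were Gins2, a subunit of the replicative helicase (-0.76, not called), and Ung, the uracil glycosylase (1805 and 384 counts, -0.75, called). The other gene called was Mcm2, a helicase subunit (250 and 157 normalised CPM, -0.67), which is outside the rule for names and is given after its value was seen. The highest were Pcna, the sliding clamp (0.00), and Mcm3 (-0.36). All 6 genes of the Mcm helicase ring were below 0.

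The CDK-activating kinase with the chaperone Cdc37 had 4 genes measured and none called, with a median of -0.34 (-0.20 after length and GC adjustment). Cdc37, which delivers CDK4 and CDK6 to HSP90, was lowest (-0.50), then Ccnh, the cyclin of that kinase (-0.36), while Mnat1 was at 0.00 and Cdk7 at -0.32. The list of ubiquitin and turnover genes, 14 measured, had none called and a median of -0.25. Skp2, the ligase subunit that marks p27 for destruction, was lowest (551 and 119 counts, -0.73, interval -1.03 to -0.44), and Rnf187 next (-0.66). Ambra1, which directs D cyclins to degradation, was highest (0.32), then Rnf123, of a ligase that acts on p27 (0.20).

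Of 16 known regulators of the members, 3 were called higher and none lower. The median was 0.14 (-0.02 by the protein-coding total and -0.68 by total counts). Klf4, an activator of Cdkn1a, was highest (43.7 and 250 normalised CPM, 2.52), then Egr1 (466 and 2632 normalised CPM). Both also stand on the immediate early list. The third called was Hes1, a Notch target (5.39 and 10.8 normalised CPM), which is outside the rule for names and is given after its value was seen. The lowest were Foxo4 (-0.29) and Smad2 (-0.16).

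**Figure D5:**
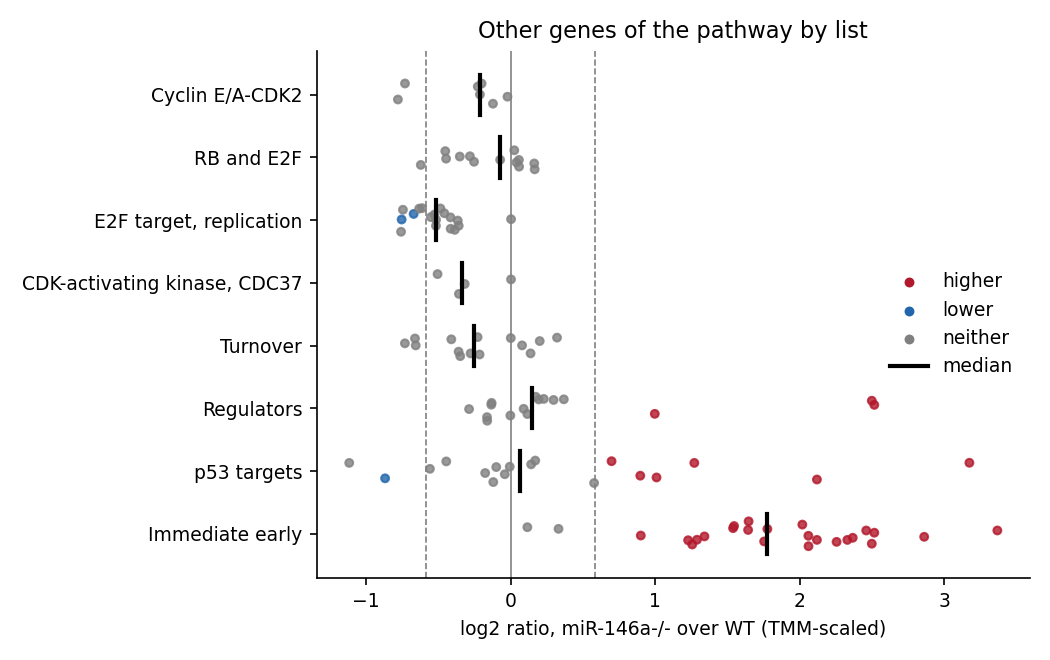
Log2 ratio (miR-146a-/- over WT) (x axis, TMM-scaled) of each measured gene in 7 pathway lists and the immediate early list, coloured by call, with the median of each list as a black bar and dashed lines at 1.5-fold. E2F targets sit left of 0 with a median of -0.52, and immediate early genes right of it with a median of 1.78. Total-count scaling would shift every point left by 0.82.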

How the data were processed

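The deposited values were unnormalised counts of reads for each Ensembl gene, 1 column per library. Per the labels, RNA was total RNA, single-stranded and ribodepleted. Per the file headers, alignments had junctions on the genome and flagged duplicates. Per the submitters' processing notes, STAR 2.5.3a, Salmon 0.9.0 and mm10 were used, in roles not given. The counting program, the use of strand and the handling of duplicates were not given in the sources used here. Rows without a GENCODE M21 name held 0.286% (WT) and 0.168% (miR-146a-/-) of counts.

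TMM (edgeR 4.0.16, R 4.3.3) gave library sizes over genes with 20 or more summed counts. With 1 library per genotype no test was run. Ratios used a prior count of 0.5, and intervals were exact. Reads are not independent molecules, so intervals and floors cover counting error only. Lengths and 3′ untranslated regions came from GENCODE M21 (GRCm38), and promoters and microRNAs from RefSeq.

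Members and lists were chosen with earlier results of these data known. The rule for names took all members, up to 2 highest and 2 lowest genes of each pathway list, list genes at 0 counts, and the 2 most abundant of each marker list. Its last part was followed for the LSK, lineage, neutrophil, and T and NK lists. The other marker lists are described without their most abundant genes. A gene that this rule takes is not reported here. Alternatives were other scalings, including DESeq2 1.42.0 size factors, other count filters, a 2-fold call, a prior count of 5, and adjustment for length and GC content. SciPy 1.17.1 gave the intervals.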

Additional observations from a re-analysis of the deposited data

How the results depend on the processing

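No paired analysis was possible because each genotype has 1 library. Members called higher numbered 2, and 0 by total counts, 1 by the protein-coding total and 1 beyond 2-fold. Members called lower numbered 0, and 5 by total counts and 1 by the protein-coding total. By total counts, 4 members changed sign: Cdkn1b (to -0.035), Cdkn1c (-0.68), Cdkn2d (-0.61) and Cdk6 (-0.53). Only 1 member, Cdkn1a, was then above 0. Over the 10 alternatives other than total counts, Cdkn1c changed sign once and the other 9 members kept theirs, with Cdkn1a from 1.19 to 1.44 and Cdkn1b from 0.62 to 0.82. The 2-fold call and the count filters that kept the library sizes cannot change a ratio, so for these the sign was fixed in advance. All genes called higher numbered 742, against 140 by total counts, 491 with at least 200 counts and 294 beyond 2-fold. All genes called lower numbered 212, against 7077 by total counts, 574 by the protein-coding total, 130 with at least 200 counts, 322 with at least 1 count, 42 beyond 2-fold and 136 after length and GC adjustment. Pathway genes called higher numbered 9, against 4 by total counts and 5 beyond 2-fold. Pathway genes called lower numbered 3, against 64 by total counts, 16 by the protein-coding total, 1 with at least 200 counts, 11 with at least 1 count, and 0 beyond 2-fold. Member pairs beyond 1.5-fold numbered 14, and 6 beyond 2-fold, both without adjustment for length and GC content. The other count filters also refit the library sizes. An alternative added after the data were seen kept the sizes. Its 200-count filter gave 441 genes higher and 167 lower, and 3 pathway genes lower. Its 1-count filter gave 878 genes higher and 212 lower, and 3 pathway genes lower. The shifts in pathway genes called lower, and that to 322 genes lower with at least 1 count, thus came with the refitted sizes. The 2-fold call gives fewer calls by construction. The cause of the other shifts was not tested. Lengths of the longest transcript gave the same order of members within each family, but the order across families depends on the length used. Depth limits Cdkn1c, Cdkn2c and Cdkn2d, with 115 to 195 counts in miR-146a-/-.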

Other observations

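Outside the members, 38 other cyclin and cyclin-dependent kinase genes, including kinases of the CDK-like family, were measured, and were chosen by symbol after values of these data were seen. Of them, 1 was called higher and 0 lower, with a median ratio of -0.11. The gene called was Ccnl1, a cyclin that pairs with the CDK11 kinases in RNA splicing, with counts of 6051 (WT) and 4762 (miR-146a-/-), or 130 and 285 normalised CPM, a ratio of 1.13 (1.08 to 1.19). Next was Ccng2, an atypical cyclin known from growth arrest, with 24.0 and 38.0 normalised CPM and a ratio of 0.66 (0.52 to 0.80), which was not called.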
